A study of Mus musculus with 140 samples.

Results

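The Dlx genes encode homeodomain transcription factors of the forebrain GABAergic lineage, and the 6 transcripts described here are Dlx1, Dlx2, Dlx5 and Dlx6 with the antisense RNAs Dlx1as and Dlx6os1. They were chosen by name among 55450 genes of GENCODE vM21, with earlier results of these data known. Every cluster of 70 immunoprecipitation (IP) libraries whose midpoint and strand fell in one of them was taken, so that sense and antisense RNA stayed apart. The libraries listed 13239113 clusters, of which 3368 lay on these 6 transcripts. Of all clusters 3579282 were enriched over input, meaning a p of 0.001 or less in the comparison with the input library of the same sample, and 1562 of those lay on the 6 transcripts.

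Dlx genes sit in pairs that are transcribed towards each other and share enhancers. Dlx1 and Dlx2 act early in progenitors of striatal projection neurons and interneurons, Dlx5 and Dlx6 act later in the same lineage, and adult interneurons keep some Dlx expression. Dlx1as is transcribed across Dlx1 from the opposite strand. Dlx6os1, also known as Evf2, is an antisense RNA that runs across Dlx6 and is known in mouse for regulating Dlx5, Dlx6 and Gad1 in the embryonic forebrain. N6-methyladenosine (m6A) is an internal mark of RNA that is placed mainly near stop codons and in 3′ UTRs, and TDP-43 is an RNA-binding protein that controls splicing and RNA stability.

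The RNAs were measured by eCLIP, in which immunoprecipitated RNA fragments are sequenced and stretches of piled-up reads are called as clusters. For m6A the RNA is bound by an antibody against the mark. For TDP-43 the tissue was crosslinked with UV light, and the protein was pulled down with its RNA by an antibody. R6/2 mice, B6CBA-Tg(HDexon1)62Gpb/3J, carry exon 1 of human mutant huntingtin as a transgene, and non-transgenic (NT) mice served as controls, both at 3 months. Per assay and genotype, striatum and cortex were each represented by 8 libraries, 4 of males and 4 of females. A separate m6A experiment used C57Bl/6 males injected into the ventricles at 5 weeks with 500 ug of an ASO, an antisense oligonucleotide targeting TDP-43, or with PBS. Tissue was taken 2 weeks later and gave 3 libraries per treatment. Its sample labels give an age of 2 months. They say cortex, whereas the treatment text of the same samples says striatum, and the labels were followed for the region. R6/2 is a fragment model with a short course, and whether libraries of different regions or assays came from the same animals is not stated.

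The libraries listed between 133211 and 260739 clusters, with 56405 to 99049 enriched in m6A and 4929 to 54932 in TDP-43 libraries. In NT mice all 13 medium spiny neuron markers carried more enriched m6A clusters in striatum than in cortex and all 10 cortical excitatory neuron markers fewer, as the tissue labels imply. In TDP-43 eCLIP of striatum, 5 of the 8 R6/2 libraries (4 females and 1 male) had more than 30% of their listed clusters in introns, against a highest share of 25.7% in NT libraries. In TDP-43 eCLIP of cortex this share was 23.9% to 35.9% in R6/2 and 19.7% to 29.7% in NT libraries. The files hold no reads, so read depth is unknown, and the value used for a gene was its number of enriched clusters divided by a size factor of the library. In bulk tissue, fewer cells of a type and less RNA or less methylation per cell cannot be told apart. Libraries of a sex and genotype are numbered as separate samples of one cohort, and the p-values measure the spread between these libraries.

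The chromosome 2 pair lies at chr2:71528113-71533981 on the plus strand for Dlx1 and chr2:71543408-71546754 on the minus strand for Dlx2 (mm10). Dlx1as runs on the minus strand from chr2:71516454-71537891 and spans all of Dlx1. On chromosome 6, Dlx6os1 occupies chr6:6820189-6871592 on the minus strand and spans Dlx6 on the plus strand (chr6:6863334-6868568). Dlx5 follows at chr6:6877805-6882085 on the minus strand. A recurrent site was a stretch where enriched clusters of 4 or more of the 16 libraries of an assay and region overlapped. There were 27 such m6A sites on these transcripts in striatum and 23 in cortex. TDP-43 had 1, in striatum.

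The sequences below are mm10 windows of 29 bases on the transcribed strand at 8 m6A sites, with the copy of GGAC followed by A, C or T (the most common forms of the m6A consensus) nearest the middle of the site in capitals. The first 2 are from the Dlx1as sites with the lowest p between genotypes in cortex and in striatum. The other 6 are from sites that were enriched in all 8 libraries of both genotypes and are shown as the counterpart.
Dlx1as intron, chr2:71521847-71521875: agcctggcacacGGACTccaaccctgaaa
Dlx1as intron, chr2:71523084-71523112: cagtgaaaaactGGACTctggggaaggag
Dlx1as intron, chr2:71532172-71532200: aaagggacgggtGGACAacaatacccgcc
Dlx1 3′ UTR, chr2:71533446-71533474: tcaaaaacgtttGGACAagaacacctggc
Dlx2 coding sequence, chr2:71544771-71544799: gccagcatcctgGGACTtcggcgcgccgc
Dlx5 3′ UTR, chr6:6878114-6878142: tgctcagttttgGGACTacagtgttgtgc
Dlx6 3′ UTR, chr6:6867960-6867988: aacaaagattttGGACTcctggattttta
Dlx6os1 exon, chr6:6824162-6824190: tgttttgctgcaGGACTtctgttttgtcc
In windows of 51 bases around the middle of each site, on the transcribed strand, 11 of 27 striatal and 9 of 23 cortical sites of the 6 transcripts held one of these motifs. Over all m6A sites the share was 30.9% in striatum and 31.2% in cortex. A match is a description of the letters and not a mapped methylated base.

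Counting clusters enriched at a p of 0.001 or less, Dlx1as was the 1 member with a called change in m6A cluster number between genotypes. In cortex it carried 3 to 7 enriched clusters per R6/2 library (median 6) and 9 to 21 per NT library (median 12), and the groups did not overlap. After scaling, the level was 5.54 ± 1.51 in R6/2 cortex and 13.6 ± 4.67 in NT cortex (mean ± SD, n = 8 each). The log2 change was -1.19 (SE 0.14, limma adjusted p = 1.02e-05). Counting all listed clusters, enriched or not, gave 7 to 11 in R6/2 cortex and 13 to 23 in NT cortex, with a log2 change of -0.83 (limma adjusted p = 5.93e-05).

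In striatum Dlx1as carried 3 to 10 enriched m6A clusters per R6/2 library (median 6) and 6 to 13 per NT library (median 9.5). The groups overlapped, with 1 R6/2 female at 10. The scaled level was 5.46 ± 2.11 in R6/2 striatum and 9.31 ± 1.95 in NT striatum, and the log2 change was -0.77 (SE 0.17, limma adjusted p = 0.0061). The same fit on males alone gave -0.76 (adjusted p = 0.157) and on females alone -0.77 (adjusted p = 0.0666). The change in striatum minus that in cortex was 0.44, with an adjusted p of 0.678.

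Dlx1as was 1 of 6 members called in each region, against a background of 9.64% of the 9734 genes tested in striatum and 6.17% of the 9071 tested in cortex. For the difference of the R6/2 change between regions no member was called in limma, where 0.258% of 9312 genes were called and 736 had an unadjusted p under 0.05. For the difference between sexes no member was called either. There 0% of genes were called in striatum and 0% in cortex, with 580 and 420 genes at an unadjusted p under 0.05.

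The study kept peaks reproducible between male and female samples and also set thresholds, and only the thresholds were applied here. These, a log2 fold over input of at least 3 on top of the p, left 1 to 3 Dlx1as clusters per R6/2 cortex library. In NT cortex libraries they left 2 to 4. The cortex change was then -0.92 with an adjusted p of 0.152, and the striatum change was 0.20 (adjusted p = 0.883), with 1 to 4 clusters in R6/2 and 1 to 3 in NT striatum. Under these thresholds 2 of 2462 genes were called in cortex and 3 of 2509 in striatum. At a p of 1e-10 or less the cortex groups stayed apart, at 1 to 2 clusters in R6/2 and 5 to 11 in NT libraries, and the striatum change of -0.63 had an adjusted p of 0.0522.

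**Figure D1:**
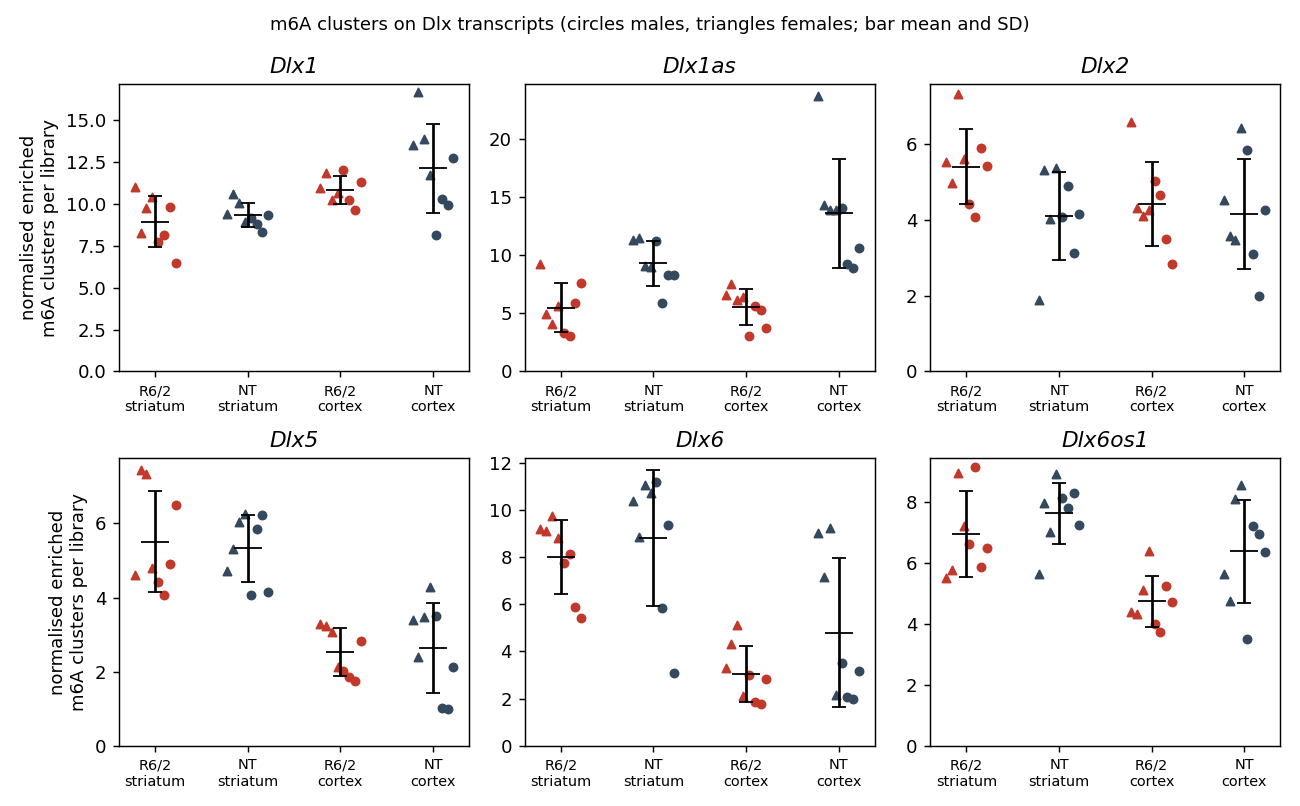
Normalised enriched m6A clusters per library (y axis) for the 6 transcripts in striatum and cortex of R6/2 and NT mice, with circles for males, triangles for females and a bar for the mean and SD of 8 libraries. Dlx1as averaged 5.54 in R6/2 and 13.6 in NT cortex, where 1 NT female stood at 23.7, whereas Dlx5 and Dlx6 were higher in striatum than in cortex.

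The Dlx1as clusters were mostly intronic. Introns held 31 of 44 enriched m6A clusters in R6/2 cortex and 74 of 98 in NT cortex, and 37 of 47 in R6/2 striatum and 62 of 77 in NT striatum. The m6A libraries were made from RNA selected on oligo-dT beads. When only clusters that overlapped an exon were counted, Dlx1as was tested in cortex (log2 change -0.79, adjusted p = 0.0251) and had too few clusters to be tested in striatum.

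By position, the antisense clusters formed a group within the span of Dlx1 and a smaller group downstream along Dlx1as, to the left in the plot of the locus. Inside the Dlx1 span there were 3 to 6 enriched clusters per R6/2 cortex library and 7 to 15 per NT cortex library, with no overlap, and 3 to 8 in R6/2 against 4 to 10 in NT striatum. Outside that span the 8 libraries together held 1 cluster in R6/2 cortex and 24 in NT cortex, and 6 in R6/2 striatum and 22 in NT striatum. Both groups of clusters had fewer members in R6/2 in both regions, which was not tested separately.

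Single Dlx1as sites ranged from ones enriched in every library to ones enriched in NT libraries only. In cortex, the site chr2:71521818-71521897 was enriched in 0 of 8 R6/2 and 6 of 8 NT libraries (exact permutation within sex, two-sided p = 0.0102). In striatum the site chr2:71523042-71523127 was enriched in 0 of 8 R6/2 and 5 of 8 NT libraries (exact p = 0.0306). By contrast, the sites at chr2:71532081-71532304 and chr2:71532882-71533065 were enriched in 8 of 8 libraries of both genotypes in cortex, as were their counterparts in striatum. No site of the 6 transcripts passed adjustment over all sites, where 0% of 41200 sites in striatum and 0% of 38094 in cortex were called and 1230 and 1183 sites had an unadjusted p under 0.05. The smallest p this design allows is 0.000408, so adjustment over so many sites left little room for a call.

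**Figure D2:**
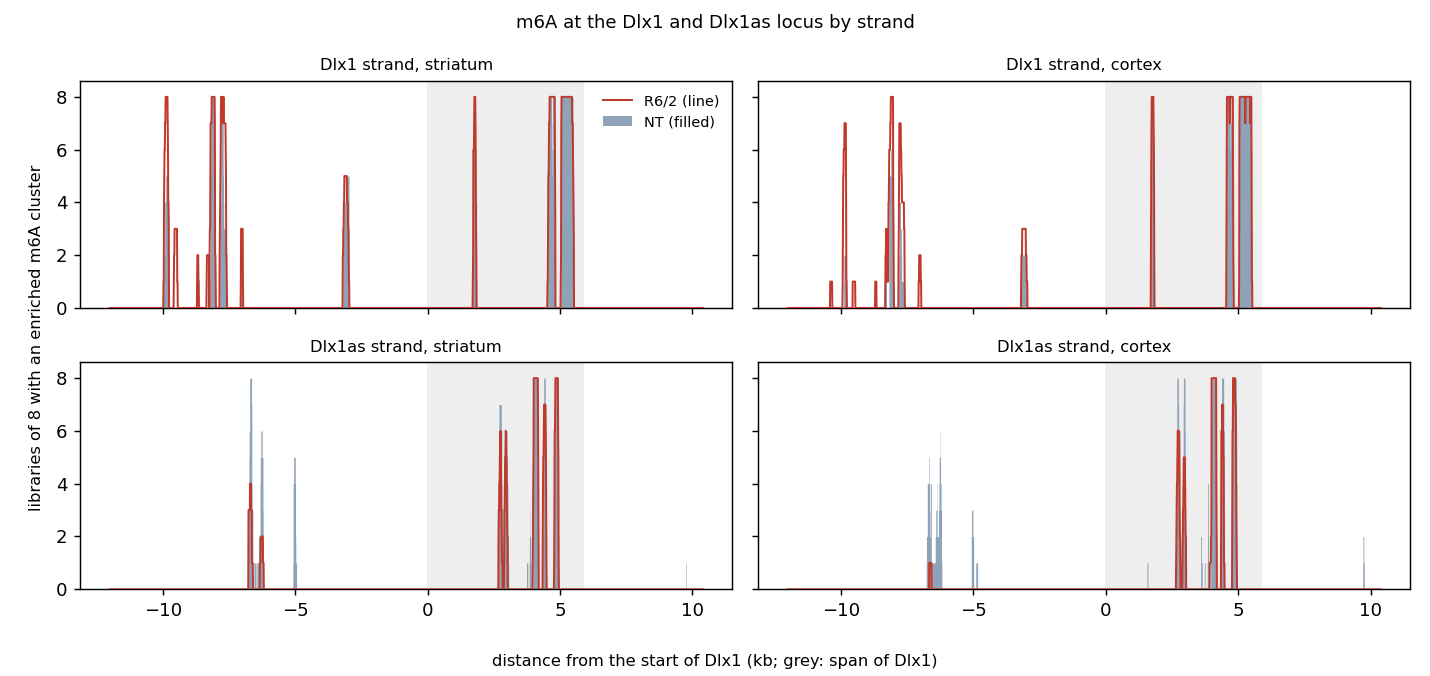
Number of the 8 libraries with an enriched m6A cluster (y axis) against distance from the start of Dlx1 in kb, by strand and region, with R6/2 as a line, NT filled and the Dlx1 span in grey. Clusters on the Dlx1 strand left of the grey span belong to the neighbouring gene Metap1d, and on the Dlx1as strand the clusters outside the span numbered 1 in R6/2 and 24 in NT cortex.

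Dlx1, the sense partner, had no called change. It carried 6 to 13 enriched clusters per library in R6/2 striatum and 8 to 12 in NT striatum, and 10 to 12 in R6/2 cortex and 7 to 14 in NT cortex. The log2 change was -0.07 in striatum (95% interval -0.26 to 0.13, adjusted p = 0.738) and -0.12 in cortex (-0.33 to 0.10, adjusted p = 0.574). Its clusters lay at 3 sites, 1 in the 5′ UTR and 2 in the 3′ UTR, and each was enriched in 8 of 8 libraries of both genotypes and regions. All 396 m6A clusters listed on Dlx1 over the 38 m6A libraries were enriched, whereas on Dlx1as 369 of 514 were.

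Dlx2 carried 4 to 9 enriched m6A clusters in R6/2 striatum (median 6) and 2 to 6 in NT striatum (median 4). Its log2 change of 0.40 was not called (95% interval 0.05 to 0.74, adjusted p = 0.155), and in cortex the change was 0.12 (-0.26 to 0.50, adjusted p = 0.759). The striatal change was called at a p of 1e-10 or less (0.57, adjusted p = 0.0152), was 0.23 over all listed clusters (adjusted p = 0.386), and ran from 0.25 to 0.45 without 1 library. The authors' log2 fold over input at its 3 sites is another measure. In striatum its median over the sites ran from 2.41 to 3.11 across R6/2 libraries (2.76 ± 0.21) and from 1.86 to 2.54 across NT libraries (2.31 ± 0.23). That difference of 0.46 had an exact permutation p of 0.00122, unadjusted, in 13 such comparisons of a transcript's sites. All 3 sites, 2 in the 3′ UTR and 1 in the coding sequence, were listed in every striatal library. In cortex the difference was 0.20 (2.66 ± 0.52 in R6/2 and 2.46 ± 0.41 in NT, exact p = 0.429).

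In 3 other cases the difference had an unadjusted exact p under 0.05. The fold at the Dlx1 sites was 2.40 ± 0.24 in R6/2 and 2.63 ± 0.20 in NT striatum (difference -0.23, exact p = 0.0429). At the Dlx1as sites it was 2.40 ± 0.23 in R6/2 and 2.11 ± 0.18 in NT cortex (difference 0.29, exact p = 0.018). At the Dlx6 sites it was 0.84 ± 0.11 in R6/2 and 1.30 ± 0.29 in NT striatum (difference -0.46, exact p = 0.00204). The last 2 rested on which sites were listed in a library. Over the 3 Dlx1as sites listed in every library the difference was 0.14 (exact p = 0.518), and over the 4 such Dlx6 sites it was -0.10 (exact p = 0.122). In striatum the fold difference at the Dlx1as sites was 0.15 (exact p = 0.437). In both regions the mean Dlx1as fold was higher in R6/2, whereas its number of clusters was lower. Over sites listed in every library neither fold difference had an exact p under 0.05 (in striatum 0.17, exact p = 0.288).

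**Figure D3:**
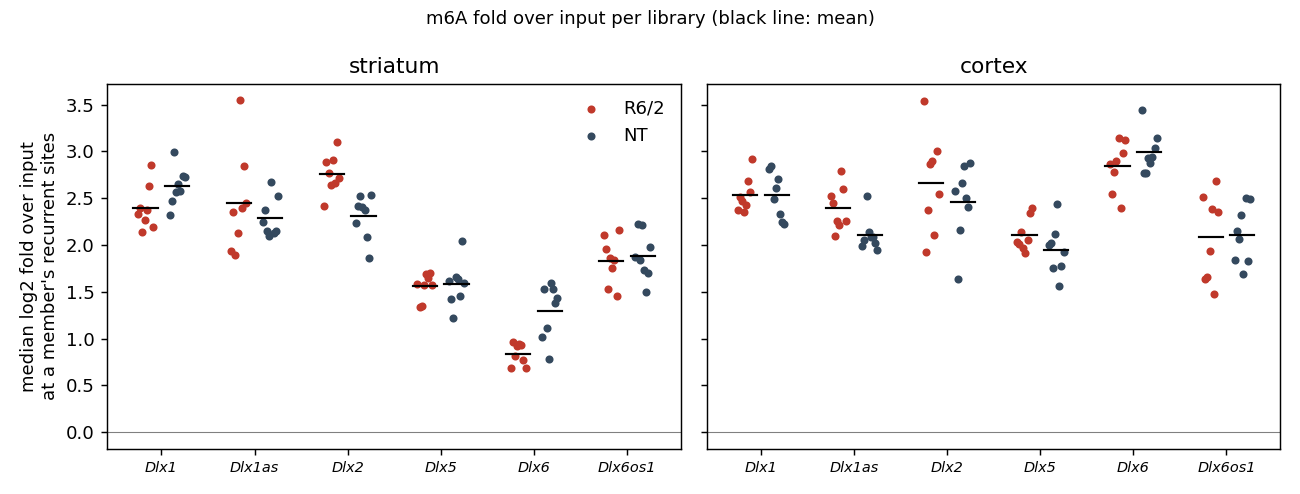
Median log2 fold over input at the recurrent m6A sites of each transcript (y axis), a point per library, R6/2 left of NT, with a black line for the mean. Dlx2 in striatum averaged 2.76 in R6/2 and 2.31 in NT, and the striatal Dlx6 difference shrank to -0.10 over sites listed in every library.

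Dlx5 and Dlx6 had no called genotype change at a p of 0.001 or less. Dlx5 carried 4 to 9 enriched m6A clusters in R6/2 striatum and 4 to 7 in NT striatum, and 2 to 3 in R6/2 cortex and 1 to 4 in NT cortex. Its log2 changes were 0.03 in striatum (95% interval -0.26 to 0.32) and 0.03 in cortex (-0.40 to 0.47). Dlx6 carried 5 to 12 in R6/2 striatum and 3 to 12 in NT striatum, and 2 to 5 in R6/2 cortex and 2 to 8 in NT cortex. Its changes were -0.07 in striatum (-0.42 to 0.28, adjusted p = 0.87) and -0.41 in cortex (-0.92 to 0.09, adjusted p = 0.344). At a p of 1e-10 or less the Dlx6 change in cortex was called (-0.53, adjusted p = 0.049).

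Dlx6os1 carried 6 to 11 enriched m6A clusters in R6/2 striatum and 6 to 10 in NT striatum, and 4 to 6 in R6/2 cortex and 3 to 8 in NT cortex. Its log2 change was -0.14 in striatum (adjusted p = 0.557) and -0.36 in cortex (95% interval -0.67 to -0.04, adjusted p = 0.18). The cortex change was called when covered bases replaced cluster numbers (-0.37, adjusted p = 0.045) and with the number of enriched clusters as a covariate (-0.68, adjusted p = 0.0251). Unlike those of Dlx1as, its clusters lay mainly in exons, 53 of 60 in R6/2 and 56 of 63 in NT striatum. None of the 70 libraries had an enriched Dlx6os1 cluster opposite Dlx6, although the 2 genes overlap over the whole of Dlx6. Opposite Dlx2 and Dlx5 no library listed a cluster at all.

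**Figure D4:**
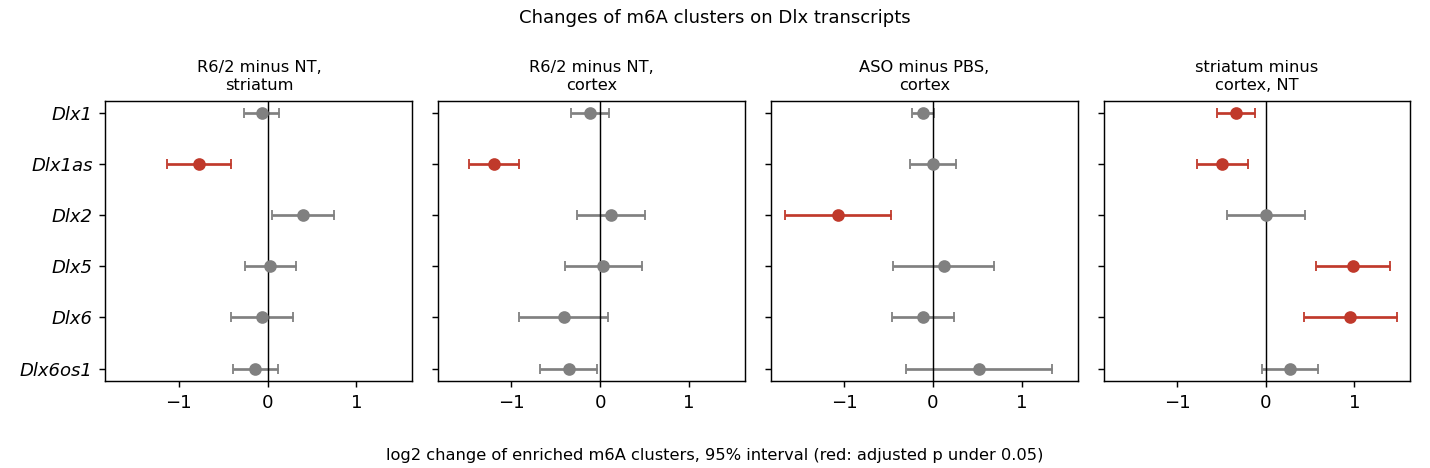
Log2 change of enriched m6A clusters with its 95% interval for the 6 transcripts in 4 comparisons, in red where the adjusted p was under 0.05. Dlx1as was lower in R6/2 in both regions (-0.77 in striatum and -1.19 in cortex), Dlx2 was lower after ASO (-1.07), and Dlx5 and Dlx6 were higher in NT striatum than in NT cortex.

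Between regions more members were called than between genotypes. In NT mice, 4 of the 6 transcripts were called between striatum and cortex, against a background of 18.7% of 9272 genes. Dlx5 had 4 to 7 enriched m6A clusters in NT striatum and 1 to 4 in NT cortex, touching at 4 (log2 difference 0.98, SE 0.20, limma adjusted p = 0.00115). Dlx6 had 3 to 12 in NT striatum (median 10.5) and 2 to 8 in NT cortex (median 3), with a difference of 0.95 (SE 0.25, adjusted p = 0.00914). Dlx1as was lower in striatum by this count (-0.49, SE 0.14, adjusted p = 0.0155), as was Dlx1 (-0.34, SE 0.10, adjusted p = 0.0236). Dlx6os1 (0.27, adjusted p = 0.235) and Dlx2 (0.00, adjusted p = 0.998) were not called. Dlx6os1 was called with covered bases (0.32, adjusted p = 0.02) and at a p of 1e-10 or less (0.65, adjusted p = 0.00767).

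Over all listed clusters none of the 4 was called, at 0.15 for Dlx5 (adjusted p = 0.56), 0.49 for Dlx6 (0.051), -0.22 for Dlx1as (0.199) and -0.26 for Dlx1 (0.116). Dlx1 was also not called without any 1 of 4 libraries: NT cortex male 4, NT cortex female 2, NT striatum female 1 or NT striatum female 4 (adjusted p 0.0504 to 0.0572). In striatum the Dlx5 and Dlx6 clusters extended beyond the 3′ UTR. The 3′ UTR held 22 of 44 Dlx5 clusters in NT striatum and 17 of 19 in NT cortex, and 49 of 73 Dlx6 clusters in NT striatum and 32 of 34 in NT cortex.

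Per kilobase of exon, the mean number of m6A clusters in NT striatum was 5.71 for Dlx1as, 3.71 for Dlx6, 2.35 for Dlx5, 1.73 for Dlx1, 1.48 for Dlx6os1 and 1.44 for Dlx2. In NT cortex it was 8.33 for Dlx1as, 2.25 for Dlx1, 2.02 for Dlx6, 1.45 for Dlx2, 1.23 for Dlx6os1 and 1.17 for Dlx5. The Dlx1as value is set against its short exons although most of its clusters were intronic. In cortex the neighbours from Dlx1 down, and in striatum Dlx6os1 and Dlx2, differed by less than the larger SD of each pair.

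After the TDP-43 ASO, Dlx2 was the 1 of 6 transcripts called, against a background of 30.2% of 10149 genes. It had 1, 2 and 2 enriched m6A clusters in ASO libraries and 4, 5 and 4 in PBS libraries, with no overlap (log2 change -1.07, SE 0.24, limma adjusted p = 0.0221). The call was lost without PBS library 1 (adjusted p = 0.0582) or PBS library 2 (0.0743), and when covered bases replaced cluster numbers (-0.23, adjusted p = 0.592). Dlx1as had 18, 17 and 14 clusters in ASO libraries and 18, 16 and 20 in PBS libraries, with a log2 change of 0.00 (95% interval -0.25 to 0.26, adjusted p = 0.977). At a p of 1e-10 or less it was called lower, with 6 to 8 clusters in ASO libraries and 10 to 11 in PBS libraries (-0.45, adjusted p = 0.0173), and over clusters that overlapped an exon it was called higher (0.48, adjusted p = 0.0125). The other changes were -0.11 for Dlx1, 0.12 for Dlx5, -0.11 for Dlx6 and 0.52 for Dlx6os1 (95% interval -0.30 to 1.34). Without ASO library 1 the Dlx6os1 change was 0.87 (adjusted p = 0.0402), and without PBS library 3 the Dlx1 change was -0.15 (adjusted p = 0.0411).

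Within a treatment 99.2% to 99.3% of the listed intervals were identical between libraries, against at most 1.08% between libraries of either genotype in the R6/2 experiment. The spread within a treatment therefore covers the scoring of shared intervals and not their calling, and the p-values of this comparison rest on it. Each ASO library listed 6 Dlx2 clusters and each PBS library 7.

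TDP-43 left few enriched clusters on these RNAs, 28 over 32 libraries. Dlx6 held 17 of them, Dlx1as 8, Dlx6os1 2 and Dlx1 1, and Dlx2 and Dlx5 had none, so no member passed the filter of 2 enriched clusters in 50% of the libraries.

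The 1 recurrent TDP-43 site, chr6:6868072-6868176, lay in the 3′ UTR of Dlx6 and was enriched in 7 of 8 R6/2 and 7 of 8 NT striatal libraries. It lies between the m6A sites chr6:6867920-6868074, which it overlaps by 3 bases, and chr6:6868205-6868491. Its log2 fold over input was 3.11 to 6.15 in R6/2 (4.42 ± 1.22, n = 7) and 2.75 to 5.70 in NT (3.92 ± 0.94, n = 8), and the difference of 0.51 had an exact permutation p of 0.396. In cortex 1 library of each genotype had an enriched TDP-43 cluster on Dlx6. The 51-base window at the site held no TGTGT, a short form of the UG repeat TDP-43 binds, and neither did most TDP-43 sites, of which 7.2% in striatum held it. Among TDP-43 sites in striatum 0% of 18664 were called between genotypes, with 1110 at an unadjusted p under 0.05. With 0.000408 as the smallest exact p of the design, adjustment over so many sites left little room for a call.

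**Figure D5:**
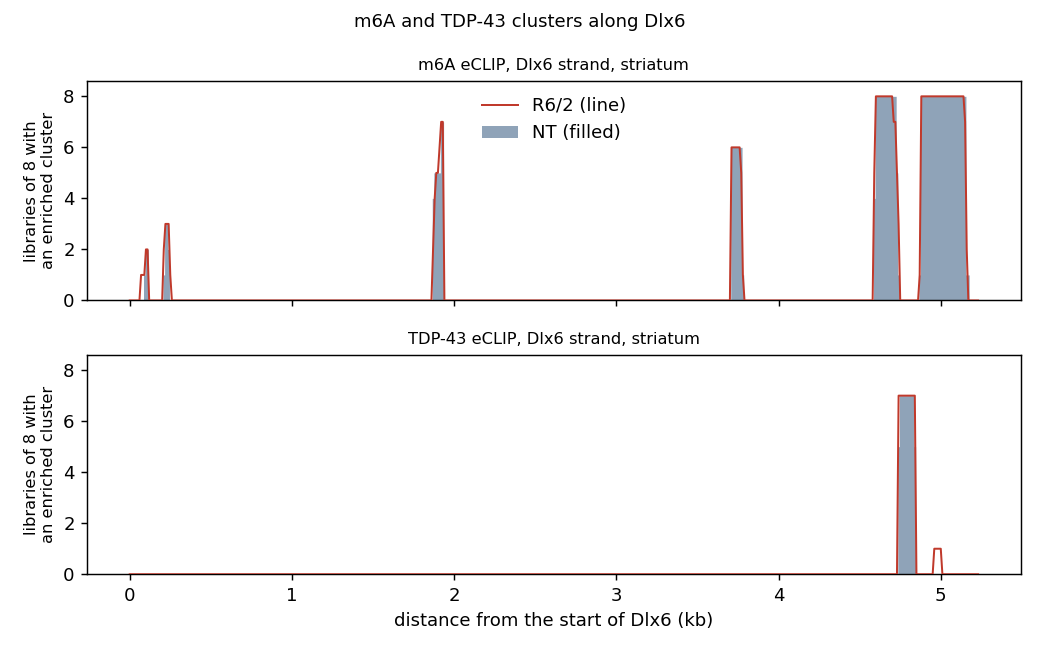
Number of the 8 striatal libraries with an enriched cluster (y axis) against distance from the start of Dlx6 in kb, on the Dlx6 strand, for m6A above and TDP-43 below, with R6/2 as a line and NT filled. The TDP-43 cluster was present in 7 R6/2 and 7 NT libraries, between the 2 m6A sites of the 3′ UTR, and 1 R6/2 library had a second cluster downstream.

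Dlx1as had enriched TDP-43 clusters in NT cortex only. The 8 R6/2 cortex libraries had 0, and the NT cortex libraries had 0, 0, 0 and 3 in males and 1, 2, 0 and 2 in females. All 8 clusters were intronic and inside the span of Dlx1. The NT cortex libraries with these clusters had 40758 to 54001 enriched clusters on gene strands, and those without had 28403 to 34631. In R6/2 cortex libraries the range was 15445 to 43449, and females 2 and 3, at 40607 and 43449, had none on Dlx1as. The parts of library yield and of the intronic share in this pattern were not tested. Fitted without the filter, the change had a limma adjusted p of 0.15. None of the 4 members tested that way in cortex was called (background 3.61% of 8729 genes), nor were the 2 tested in striatum (5.48% of 6465).

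Counting all listed TDP-43 clusters, Dlx1as had 3 to 12 in R6/2 cortex and 7 to 12 in NT cortex, with a log2 change of -0.79 (adjusted p = 0.0507). Without R6/2 female 1 it was -0.94 (adjusted p = 0.0174) and without R6/2 male 1 it was -0.88 (adjusted p = 0.0385). In striatum it had 3 to 7 in R6/2 and 2 to 8 in NT libraries (-0.54, adjusted p = 0.173). None of the 6 members was called on listed clusters, against 4.13% of 14101 genes in cortex and 14.3% of 13425 genes in striatum. In cortex 2 members had an unadjusted p under 0.05, as did 2590 of the 14101 genes. In striatum 1 member did, as did 3829 of the 13425 genes. The striatal background fell to 25 called genes without the 5 libraries of high intronic share. Those 5 include all 4 R6/2 females, so that fit has fewer libraries and compares R6/2 males alone with NT libraries of both sexes. The part of the intronic share in this fall was not tested. Dlx6os1 had 10 to 30 listed TDP-43 clusters in R6/2 and 7 to 17 in NT striatum, and the highest values, 22 to 30, were those of the 4 R6/2 females with high intronic shares. Its change of 0.14 (adjusted p = 0.548) became -0.21 without all 5 libraries of high intronic share (adjusted p = 0.761).

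Between regions in NT mice the TDP-43 fit without a filter called Dlx6 higher in striatum, where 7 of 8 NT libraries had an enriched cluster, against 1 of 8 NT cortex libraries (log2 difference 1.35, SE 0.31, adjusted p = 0.00197). Dlx1as was called lower, with 0 clusters in all 8 NT striatum libraries and 8 over the NT cortex libraries (adjusted p = 0.0352). The background there was 38% of 8350 genes, with a median difference of -0.49 over all of them. Dlx1 and Dlx6os1 were also tested and not called. NT striatum libraries had 4929 to 24127 enriched TDP-43 clusters and NT cortex libraries 28913 to 54932. The part of this yield was not tested. Over all listed clusters limma called neither Dlx6 (0.44, adjusted p = 0.149) nor Dlx1as (-0.58, 0.102). It called Dlx5 higher in striatum (0.67, 0.00692) and Dlx1 lower (-0.53, 0.0127), against 2077 of 13442 genes.

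Other transcription factors of the GABAergic lineage were called in both directions. Of 37 such factors, 31 were tested in striatum, where 6 were called higher and 2 lower in R6/2, against 9.64% of all genes called (median of the list 0.18, of all genes 0.02). Prox1, a regulator of caudal interneurons, was at 0.97 (SE 0.19, adjusted p = 0.00175) and Sox11, an early neuronal factor, at 0.64 (SE 0.16, adjusted p = 0.0149). Isl1, which specifies striatonigral neurons, was at 0.43 (adjusted p = 0.016). Pbx3 (0.50), Zfhx4 (0.40) and Zfhx3 (0.29) were also called higher. Nkx2-1, the ventral factor of interneuron progenitors, was at -0.56 (adjusted p = 0.0412) and Bcl11b, a factor of medium spiny neurons, at -0.21 (adjusted p = 0.0299). Over all listed clusters only 1 of 36 was called higher and 1 lower (median 0.06), with 783 of 16923 genes called.

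In cortex 3 of 26 were called, against 6.17% of all genes, and the 3 were higher in R6/2, among them Zfhx3 (0.64, adjusted p = 0.0126) and Zfp503 (0.47, adjusted p = 0.0255), and the list's median was 0.01. Over all listed clusters in cortex 0 of 33 were called higher and 1 lower, with 583 of 16752 genes called. After ASO 2 of 25 were called higher, Six3 (0.91) and Sox6 (0.27), and 4 lower, Foxp4 (-0.76), Tshz1 (-0.57), Lhx6 (-0.20) and Nr2f1 (-0.20), a smaller share than the 30.2% called over all genes. Of the genes for GABA synthesis and transport, none of 6 was called between genotypes in striatum and none of 5 in cortex. Between regions in NT mice 14 of 28 lineage factors were called higher in striatum and 5 lower, against 18.7% of all genes called. Nkx2-1 had the highest difference (2.33), and Sp9 (0.89) and Six3 (1.38), factors of striatal projection neurons, were among the 14. Slc32a1 (0.40), the vesicular GABA transporter, was called higher in striatum as well, as was Abat (0.79), which breaks GABA down.

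Marker genes of medium spiny neurons were also called lower in R6/2, and few markers of other cell types were called. Of the medium spiny neuron markers tested, 11 of 13 were called lower in R6/2 striatum and 7 of 11 in R6/2 cortex (backgrounds of 9.64% and 6.17% of all genes called), and the fitted change was negative for all 13 and all 11. Their summed m6A level was 174 to 198 in R6/2 and 256 to 311 in NT striatum, and 74.2 to 93.8 in R6/2 and 113 to 128 in NT cortex. Of the GABA interneuron markers 1 of 10 was called lower in striatum, near the background share, and 1 of 8 in cortex, Kcnc1 in both. The fitted change was negative for 8 of 10 and 8 of 8. The interneuron sum was 63.5 to 74.4 in R6/2 and 72.4 to 88.9 in NT striatum, and 64.2 to 73.6 in R6/2 and 71.5 to 96.8 in NT cortex. Of the astrocyte markers 1 of 4 was called lower in each region, Slc1a2 in both, with negative changes for 4 of 4 in striatum and 3 of 4 in cortex. The astrocyte sum was 64.9 to 69.97 in R6/2 and 73.8 to 83.9 in NT striatum, without overlap, and 58.6 to 76.3 in R6/2 and 73.4 to 88.1 in NT cortex. No marker of cortical excitatory neurons, oligodendrocytes, microglia or vascular cells was called in either region, and the R6/2 and NT sums of each overlapped. Between regions in NT mice all 13 medium spiny neuron markers were called higher in striatum, whereas Dlx1as was called lower there (-0.49). The part of these cell types in the Dlx1as result was not tested.

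Over the 32 m6A libraries of both regions and genotypes, the genes whose log2 levels followed Dlx1as most closely were Rasd1 (Pearson r = 0.81), Tmem44 (0.77), Nrarp (0.76), AC127249.1 (0.75) and Ackr2 (0.75), among 9976 genes. For Dlx5 they were Evi2 (0.85), Sp9 (0.83), Mog (0.82), Rxrg (0.82) and Evi2a (0.82), and for Dlx6 they were Six3 (0.83), Mog (0.82), Slc35d3 (0.81), Gbx2 (0.79) and Stk32a (0.79). Dlx1 was closest to Nell2 (0.74), Dlx2 to Rxylt1 (0.67) and Dlx6os1 to Ugt8a (0.76). Among the members, Dlx5 and Dlx6 followed each other (0.75), whereas Dlx1 and Dlx1as had an r of 0.39. These values describe libraries that share regions and genotypes.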

How the data were processed

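eCLIP libraries of m6A and TDP-43 were analysed from 70 deposited cluster lists (70 input libraries had no list of their own). The authors called clusters with CLIPper (version not given in the sources used here) on mm10 and scored each against the input of the same sample. The deposited −log10 p compares IP with input reads, and the deposited log2 value is the fold of IP over input. For m6A, RNA was selected on poly-dT beads. In the antisense experiment clusters appear to have been called once per treatment, which no source states.

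The gene of a cluster was the GENCODE vM21 gene that held its midpoint on the same strand. A second gene record named Dlx6os1 (a miscellaneous RNA) was left out. Cluster ends were checked against the GRCm38.p6 chromosomes, and sequences were read from that RefSeq assembly. For each gene the number of enriched clusters (p of 0.001 or less) was scaled by a median-ratio size factor, 0.5 was added and log2 taken. Genes with at least 2 such clusters in 50% of the libraries or more entered limma 3.58.1 (lmFit, then eBayes with trend; tests two-sided), with sex as covariate except in the ASO experiment. Benjamini-Hochberg adjustment covered all genes tested, and a call is an adjusted p under 0.05. Intervals are 95% intervals of limma. For sites, presence and fold over input were tested by permuting genotypes exactly, within each sex (4900 labelings, and 2450 for the fold at the TDP-43 site of Dlx6). The code was tested on simulated data. R 4.3.3, Python 3.11.15, NumPy 2.4.6, pandas 2.3.3, pysam 0.24.0 and matplotlib 3.10.9 were used.

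The members and lists were chosen with earlier results of these data known. Named genes are the 6 members, genes of the lineage and GABA lists called in a comparison, and the genes of highest correlation with a member. Single values of some list genes are not reported here. Alternatives were the study's thresholds, a p of 1e-10, all listed clusters, covered bases, 4 added, other scalings, no filter, exon overlap, a replicate block, the number of enriched clusters as a covariate, each sex alone and each library left out. Merging abutting clusters, fold over sites listed in every library, and leaving libraries out of the TDP-43 listed counts were added after seeing the data.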

Additional observations from a re-analysis of the deposited data

Results flagged for a closer look

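In a check of 50 groups of 7 or 8 libraries for a single value far from the rest, 2 stood out, and chance marks about 1 group in 20. NT cortex female 1 had 23.7 normalised enriched m6A clusters on Dlx1as, against 8.9 to 14.3 in the other NT cortex libraries. Without it the R6/2 change of Dlx1as in cortex was -1.11 (limma adjusted p = 4.18e-05). NT cortex female 3 had a median log2 fold over input of 2.52 at the Dlx1as sites.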

How the results depend on the processing

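Dlx1as stayed lower in R6/2 cortex under every alternative run, and lost its call only with the study's thresholds (-0.92, adjusted p = 0.152). In striatum it was 0.20 with those thresholds (0.883), -0.63 at a p of 1e-10 (0.0522), -0.76 in males alone (0.157) and -0.77 in females alone (0.0666). Leaving out 1 library gave -0.87 to -0.69 in striatum and -1.25 to -1.11 in cortex. The number of members called, 1 in striatum, became 0 with the study's thresholds, exon overlap, males alone and females alone. In cortex it was 2 with covered bases or the number of enriched clusters as covariate (Dlx6os1 added) and at a p of 1e-10 (Dlx6 added), and 0 with the study's thresholds. After ASO it was 0 with covered bases, the study's thresholds or merged clusters, 2 with exon overlap (Dlx1as added), and 0 to 2 without 1 library. Between NT regions it was 0 with all listed clusters or the study's thresholds, 2 with merged clusters, and 3 to 4 without 1 library. The cause was not tested, although each sex alone also has fewer libraries and stricter rules leave fewer clusters.

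Beside Dlx1as in striatum with the study's thresholds (above), further changes turned in direction, none of them called except Dlx1as after ASO at a p of 1e-10 (-0.45, adjusted p = 0.0173). In R6/2 striatum they were Dlx1 at a p of 1e-10 (0.039) and in females (0.022), Dlx5 with covered bases (-0.10), merged clusters (-0.026) and males (-0.023), Dlx6 with listed clusters (0.028) and males (0.0061), and Dlx6os1 merged (0.14). In R6/2 cortex they were Dlx1 merged (0.0060) and in males (0.10), and Dlx5 with 4 added (-0.0073), listed clusters (-0.14) and females (-0.15). After ASO they were Dlx1 (0.025), Dlx5 (-0.055), Dlx6 (0.018) and Dlx6os1 (-0.31) with covered bases, Dlx6 (0.16) and Dlx6os1 (-0.16) merged, Dlx6 at a p of 1e-10 (0.60), and Dlx1as with the study's thresholds (-0.15). Between NT regions they were Dlx2 with 4 added (-0.0018), total scaling (-0.0077) and quantile normalization (-0.038), and Dlx6os1 merged (-0.18). The Dlx1as difference between sexes turned with covered bases in striatum (-0.26) and with 4 added in cortex (0.11). The TDP-43 listed change of Dlx6os1 in striatum turned without the 5 libraries of high intronic share (-0.21), a fit with no R6/2 female. The cortical Dlx6os1 fold difference turned over sites listed in every library (0.13). Without 1 library, Dlx5 ran from -0.022 to 0.082 and Dlx6 from -0.22 to 0.037 in striatum, and Dlx5 from -0.069 to 0.15 in cortex. After ASO Dlx1as ran from -0.084 to 0.10 and Dlx5 from -0.048 to 0.30, and between NT regions Dlx2 from -0.12 to 0.15.

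Single members were called under other settings, such as Dlx2 in striatum (0.57, adjusted p = 0.0152) and Dlx6 in cortex (-0.53, 0.049) at a p of 1e-10. Replicate numbers did not pair the libraries in the m6A comparisons (none of 8 pairs correlated over 0.1 in either region, nor any of 3 ASO pairs). In TDP-43 eCLIP 4 of 8 pairs did in striatum (highest r = 0.46), 1 of 8 in cortex (0.11) and 4 of 8 between NT regions (0.28). The TDP-43 values given here were fitted without a replicate block. In the m6A fits with the replicate block, Dlx1as was at -0.77 in striatum (0.00415) and -1.19 in cortex (0.000177), and the members called stayed at 1, 1, 1 and 4. Over all genes the 938 calls in striatum became 3 with the study's thresholds, 165 merged, 603 with covered bases, 255 in males and 272 in females. The 560 in cortex became 2, 108 merged, 199 with the covariate, 81 in males and 85 in females. The 3064 after ASO became 3, 674 merged, 271 with covered bases, 1936 at a p of 1e-10 and 1939 with the block, and the 1735 between NT regions 61 and 692 merged. The fit of listed ASO clusters gave no test, because nearly all intervals were shared within a treatment. Few clusters per transcript limit what can be resolved.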
